A study of Mus musculus with 9 samples.

Results

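The proteasome genes were examined in microglia sorted from mouse brain, as all genes whose symbol begins with Psma, Psmb, Psmc, Psmd, Psme, Psmf or Psmg followed by a digit. This rule took 50 of the 23238 gene symbols counted, and it used no measured value. Of the 50, 8 encode subunits of the alpha ring of the 20S core, 7 standard, 3 interferon-inducible and 1 thymic subunits of its beta ring, 6 the ATPases and 11 the other subunits of the 19S cap, 6 activators and an inhibitor, and 7 assembly chaperones. The remaining gene, Psmc3ip, shares the name but encodes a protein of meiotic recombination. Every library was made from adult female wild-type C57BL/6N mice, 3 mice to a pool, with cells sorted as CD45+, CD11b+ and P2ry12+ on day 1. Normal mice were untreated. NMO mice were injected on one side of the striatum with IgG purified from patients with neuromyelitis optica, which binds the astrocyte water channel aquaporin-4, together with human complement. NMO+CL mice had the same striatal injection after clodronate liposomes given intraperitoneally, which deplete blood monocytes and macrophages. Each group had 3 libraries from separate pools. Normal mice had neither surgery nor control IgG, and no liposomes without clodronate were analysed here, so the surgery, the antibody and complement cannot be told apart in NMO, nor clodronate from its liposome carrier in NMO+CL.

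The proteasome degrades proteins that carry ubiquitin chains. Its 20S core is a barrel of alpha and beta rings whose active sites sit on the beta subunits Psmb5, Psmb6 and Psmb7, and the 19S cap binds, unfolds and feeds in the substrate. Interferons induce Psmb8, Psmb9 and Psmb10, which replace Psmb5, Psmb6 and Psmb7 in newly built cores. The resulting immunoproteasome is abundant in immune cells, microglia among them, and cuts peptides that are well suited to presentation on major histocompatibility complex (MHC) class I molecules.

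The values are counts of reads from the 3′ ends of polyadenylated transcripts, given here also as CPM values, in which each library is scaled to a common size. CPM values were compared between groups and not ranked between genes. Totals ran from 5788234 to 7837219 counts per library, of which the ribosomal RNA entry Rn45s took 16% to 31%, and proteasome genes took 0.255% to 0.39%. All 50 genes passed the filter on low counts and were among the 12292 genes tested. Microglia markers summed to 34170 to 38820 CPM in Normal, 29410 to 34230 in NMO and 19910 to 27560 in NMO+CL, while 8 lymphocyte markers together reached at most 7.17 CPM in any library. In NMO replicate 2 Cbr2, a carbonyl reductase counted here among 7 border macrophage markers, was at 0, against 741 to 2467 counts in the other 8 libraries. Lyve1, Pf4, Cd163 and Ms4a7 of that list were also at 0 in NMO replicate 2. They were at 0 in NMO replicate 3 as well, where Cbr2 had 971 counts. Mrc1 had 8.62 CPM in NMO replicate 2 and 10.3 in NMO replicate 3, and F13a1 had 2.2 and 3.04. Some counts over the proteasome genes that involve NMO, and some single genes, are also given without NMO replicate 2.

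Psmb9, the inducible subunit of the caspase-like site, was the proteasome gene that fell after clodronate, about 5.64-fold against Normal and 4.86-fold against NMO. Psmg2, Psme3, Psmd7 and Psmd1 rose in NMO+CL against Normal, and no proteasome gene passed the test between NMO and Normal. In NMO against Normal, 0 of the 50 genes were higher and 0 lower by edgeR's quasi-likelihood test (adjusted p under 0.05), beside 0.472% and 0.0244% of all genes tested. At an unadjusted p under 0.05, 6 were higher (12%) and 0 lower, beside 6.05% and 3.46% of all genes, and in every alternative that used an adjusted p, DESeq2 and limma-voom included, 0 were called. Between NMO+CL and NMO, 0 were higher in NMO+CL and 1 was lower, beside 0.529% and 1.07% of all genes, and at an unadjusted p under 0.05 it was again 0 and 1, beside 4.92% and 7.47%. Between NMO+CL and Normal, 4 were higher in NMO+CL (8%) and 1 was lower (2%), beside 4.79% and 4.43%. The contrasts share libraries, so they are not independent of each other.

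Away from single genes, most proteasome genes lay slightly above their Normal level in both injected groups. The median log2 fold change of the 50 genes was 0.33 in NMO against Normal, where 42 of 50 lay above 0, beside a median of -0.01 and 49.3% above 0 among all genes. Between NMO+CL and Normal the median was 0.32, with 43 of 50 above 0, beside -0.01 and 49.4%. In NMO+CL against NMO the median was 0.01, with 25 of 50 above 0, beside -0.01 and 49.7%. Without NMO replicate 2, the median in NMO against Normal was 0.21 and 39 of 50 lay above 0. In NMO+CL against NMO the median was then 0.07 and 30 of 50 lay above 0, beside a median of 0.02 among all genes. The 50 genes together measured 2870, 3079 and 2852 CPM in the Normal libraries, 3477, 3620 and 3644 in NMO, and 3564, 3788 and 3706 in NMO+CL. Every library of either injected group was thus above every Normal library in this sum, while NMO and NMO+CL overlapped.

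The same is seen gene by gene in how the libraries were placed. In NMO against Normal, 10 of the 50 genes (20%) had all 3 NMO libraries above all 3 Normal libraries, beside 9.21% of all genes, and 0 had them all below, beside 8.2%. The 10 were Psma2, Psma6, Psma7, Psmb1, Psmb2, Psmb4, Psmd2, Psmd6, Psmd7 and Psmg4. In NMO+CL against Normal, 16 genes (32%) had no overlap upward, beside 13.8%, and 2 downward (4%), beside 14.9%. In NMO+CL against NMO there were 2 upward (4%) and 3 downward (6%), beside 7.89% and 9.22%. Without NMO replicate 2, a placement over fewer libraries, 13 genes (26%) were wholly above and 2 (4%) wholly below Normal in NMO, beside 13.9% and 13.6% of all genes, and 7 (14%) were above and 5 (10%) below NMO in NMO+CL, beside 12.7% and 14%. By the 1.5-fold change and unadjusted p under 0.05 that the study applied, 5 genes were higher and 0 lower in NMO against Normal (5.2% and 2.77% of all genes), 0 higher and 1 lower in NMO+CL against NMO (4.09% and 6.65%), and 15 higher (30%) and 1 lower (2%) in NMO+CL against Normal (9.9% and 10.2%).

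**Figure D1:**
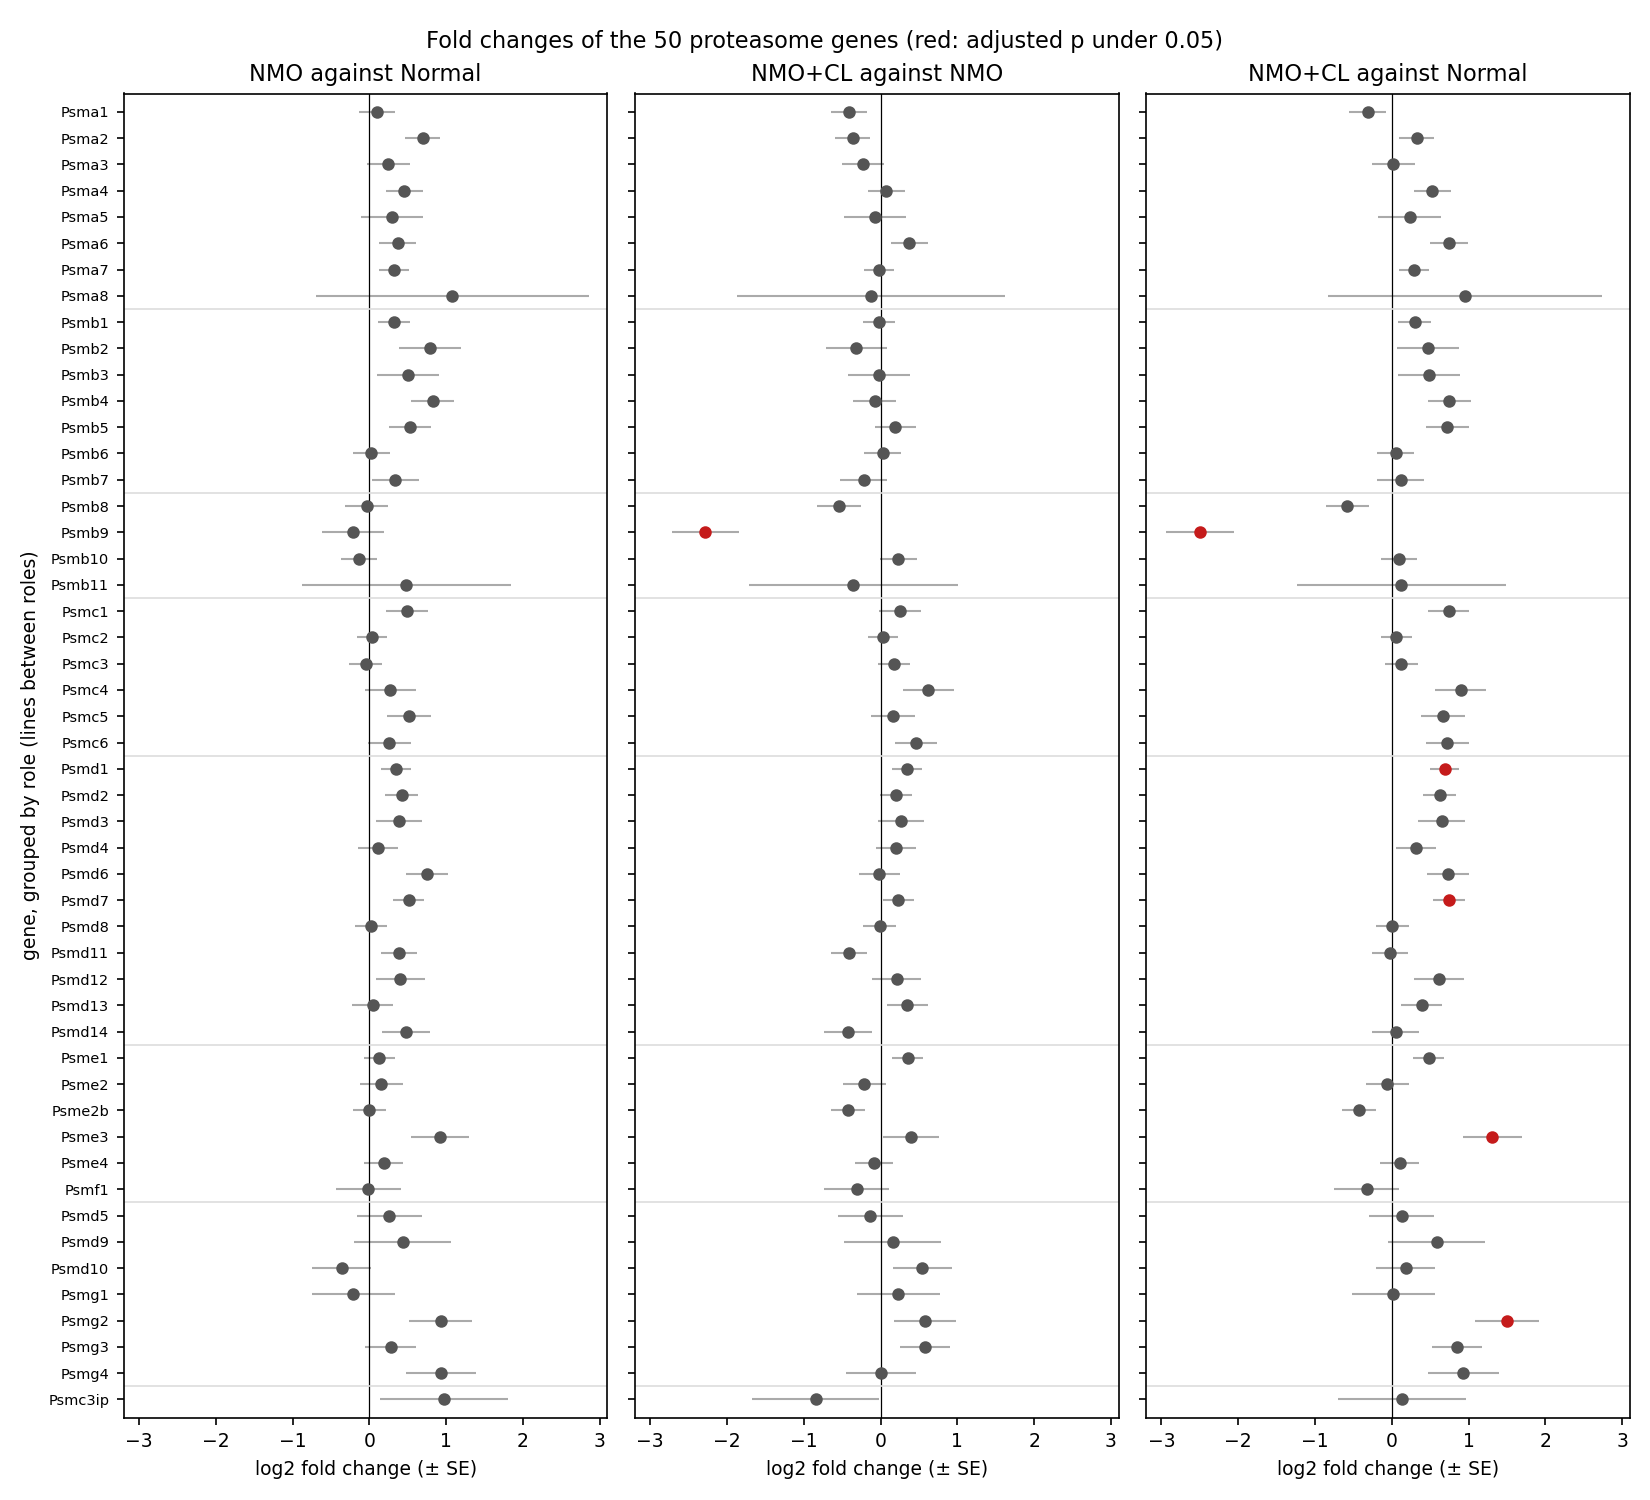
Log2 fold change (x axis) with its standard error for each of the 50 genes (y axis, grouped by role) in the 3 contrasts, with red points for an adjusted p under 0.05. Psmb9 stands alone on the left in both NMO+CL contrasts, and most other points lie to the right of 0 in the contrasts with Normal.

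Among the inducible catalytic subunits, Psmb9 changed and Psmb8 and Psmb10 did not pass the test. Psmb9 (chromosome 17, 34181987 to 34187764, minus strand) and Psmb8 (chromosome 17, 34197721 to 34201454, plus strand) lie in the class II region of the MHC in alternation with Tap1 and Tap2, which encode the transporter that moves cut peptides to class I molecules. Psmb10 lies apart from them (chromosome 8, 105935735 to 105938444, minus strand). The starts of Psmb9 and Tap1 in RefSeq are separated by 225 bases and face away from each other, so their promoters share sequence. The promoters of Psmb9 and Psmb8, and of the standard subunits Psmb6 and Psmb5 that they replace, are shown for comparison, each from 250 bases before to 50 after the start in RefSeq's GRCm38.p6 annotation and read 5′ to 3′ on the strand of the gene. They are chr17:34187281-34187580 (minus strand) for Psmb9, chr17:34197945-34198244 (plus) for Psmb8, chr11:70525107-70525406 (plus) for Psmb6 and chr14:54617946-54618245 (minus) for Psmb5. Capitals mark a match to a searched motif: a CCAAT box in Psmb9, the core of a gamma-activated sequence (TTCNNNGAA) in Psmb8, and the core of an antioxidant response element (TGACNNNGC) in Psmb6 and Psmb5.
Psmb9: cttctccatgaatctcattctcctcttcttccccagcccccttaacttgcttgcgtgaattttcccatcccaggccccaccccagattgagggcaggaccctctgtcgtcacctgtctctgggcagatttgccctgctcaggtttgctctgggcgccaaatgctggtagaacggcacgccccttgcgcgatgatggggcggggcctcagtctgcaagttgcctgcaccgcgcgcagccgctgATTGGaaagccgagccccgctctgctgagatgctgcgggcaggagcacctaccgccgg
Psmb8: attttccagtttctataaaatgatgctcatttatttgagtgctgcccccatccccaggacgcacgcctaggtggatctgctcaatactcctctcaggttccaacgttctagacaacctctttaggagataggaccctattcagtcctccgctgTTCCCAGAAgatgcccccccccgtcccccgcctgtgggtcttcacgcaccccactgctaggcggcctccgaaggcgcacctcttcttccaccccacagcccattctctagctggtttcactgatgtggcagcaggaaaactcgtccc
Psmb6: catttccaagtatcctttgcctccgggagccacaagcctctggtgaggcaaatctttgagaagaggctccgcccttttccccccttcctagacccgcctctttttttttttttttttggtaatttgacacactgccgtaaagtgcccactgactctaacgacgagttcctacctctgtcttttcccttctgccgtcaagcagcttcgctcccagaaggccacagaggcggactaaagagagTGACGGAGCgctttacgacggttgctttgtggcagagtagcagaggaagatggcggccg
Psmb5: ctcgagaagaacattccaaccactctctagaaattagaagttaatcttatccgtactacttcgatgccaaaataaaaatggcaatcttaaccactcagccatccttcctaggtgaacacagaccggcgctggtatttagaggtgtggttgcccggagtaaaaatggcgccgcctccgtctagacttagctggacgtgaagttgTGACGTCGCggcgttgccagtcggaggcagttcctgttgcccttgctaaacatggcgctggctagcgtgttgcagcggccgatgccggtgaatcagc

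A promoter was at hand for 42 of the 50 genes, 45 promoters in all, and motifs were searched on both strands. The antioxidant response element core, a site class bound by the Nrf factors, was in 6 of the 45 (13.3%), beside 12.4% of 32851 promoters of the same length. The interferon-stimulated response element core (GAAANNGAA) was in 7 (15.6%), beside 8.56%, and the gamma-activated sequence core in 3 (6.67%), those of Psmb8, Psmd2 and Psmg1, beside 8.3%. CCAAT was in 15 (33.3%), beside 37.4%. These matches describe letters in the window and not bound sites.

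Psmb9 had 241, 328 and 299 counts in the Normal libraries, 292, 422 and 198 in NMO, and 96, 46 and 18 in NMO+CL. Relative to library size these were 38.4, 49.4 and 50.3 CPM, then 36.7, 50.5 and 31.7, then 14, 7.45 and 2.88. Each NMO+CL library was below each of the other 6, and the Normal and NMO libraries overlapped. The log2 fold change was -2.28 ± 0.44 (SE) in NMO+CL against NMO (adjusted p = 0.0131) and -2.50 ± 0.44 against Normal (adjusted p = 0.00145), each lower in 3 of 3 libraries. In NMO against Normal it was -0.21 ± 0.41 (adjusted p = 0.957), and with 1 library left out it ran from -0.43 without NMO replicate 2 (0.877) to -0.09 without NMO replicate 3 (0.992). Against Normal the call held in 17 of 17 alternatives, and against NMO in 15 of 17. It was lost in the fit of the NMO and NMO+CL libraries alone (log2 fold change -2.27, adjusted p = 0.0746) and without NMO+CL replicate 2 (-2.22, 0.0764), and without NMO replicate 2 it was -2.07 (0.0349).

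Psmb8, the inducible chymotrypsin-like subunit, had 93.2, 92.4 and 101 CPM in Normal, 103, 80.3 and 96.4 in NMO, and 80, 79.7 and 32.2 in NMO+CL. All 3 NMO+CL libraries were below the other 6, 2 of them only slightly below the lowest NMO library and the third well below. The differences did not pass the test, at -0.54 ± 0.28 against NMO (adjusted p = 0.463) and -0.58 ± 0.28 against Normal (0.247). Without NMO+CL replicate 3, the lowest library, they were -0.22 (0.764) and -0.26 (0.588). Psmb10, the inducible trypsin-like subunit, had 61.2, 65.5 and 62.8 CPM in Normal, 62.7, 47 and 62.6 in NMO, and 53.7, 78.3 and 70.6 in NMO+CL. Its groups overlapped in every contrast (log2 fold change 0.23 ± 0.24 against NMO and 0.10 ± 0.24 against Normal). Psmb11, the beta subunit of thymic epithelium, had 7 to 35 counts in a library, and its 3′ end holds a repeat that many genes carry, so its reads cannot be assigned with certainty.

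The standard partners did not follow the same course. Psmb6, the caspase-like subunit that Psmb9 replaces, had 61.3, 64 and 52 CPM in Normal, 48.8, 72.8 and 58.8 in NMO, and 61.7, 54.6 and 67.6 in NMO+CL, overlapping throughout (log2 fold change 0.03 ± 0.24 in NMO+CL against NMO). Psmb5, the chymotrypsin-like subunit, had 37.5, 44.2 and 34.5 CPM in Normal, 43.7, 46.1 and 78.5 in NMO, and 55.7, 66.9 and 69.5 in NMO+CL. The NMO+CL libraries were all above Normal, but the difference of 0.72 ± 0.28 did not pass the test (adjusted p = 0.116). Psmb7, the trypsin-like subunit, ranged from 24.5 to 51.7 CPM with all groups overlapping, and its 3′ end overlaps an exon of Nek6 on the opposite strand, so reads of the pair may be mixed.

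The counts of an inducible subunit per count of its standard partner, taken within a library, do not depend on library scaling. For Psmb9 over Psmb6 this ratio was 0.626, 0.772 and 0.968 in Normal, 0.753, 0.694 and 0.54 in NMO, and 0.227, 0.136 and 0.0427 in NMO+CL. All NMO+CL ratios lay below all others. For Psmb8 over Psmb5 it was 2.49, 2.09 and 2.93 in Normal, 2.35, 1.74 and 1.23 in NMO, and 1.43, 1.19 and 0.463 in NMO+CL. The NMO+CL ratios were all below Normal and overlapped with NMO. For Psmb10 over Psmb7 it ran from 1.41 to 2.09 in Normal, 0.968 to 1.52 in NMO and 1.51 to 2.19 in NMO+CL, where NMO+CL overlapped with both other groups.

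**Figure D2:**
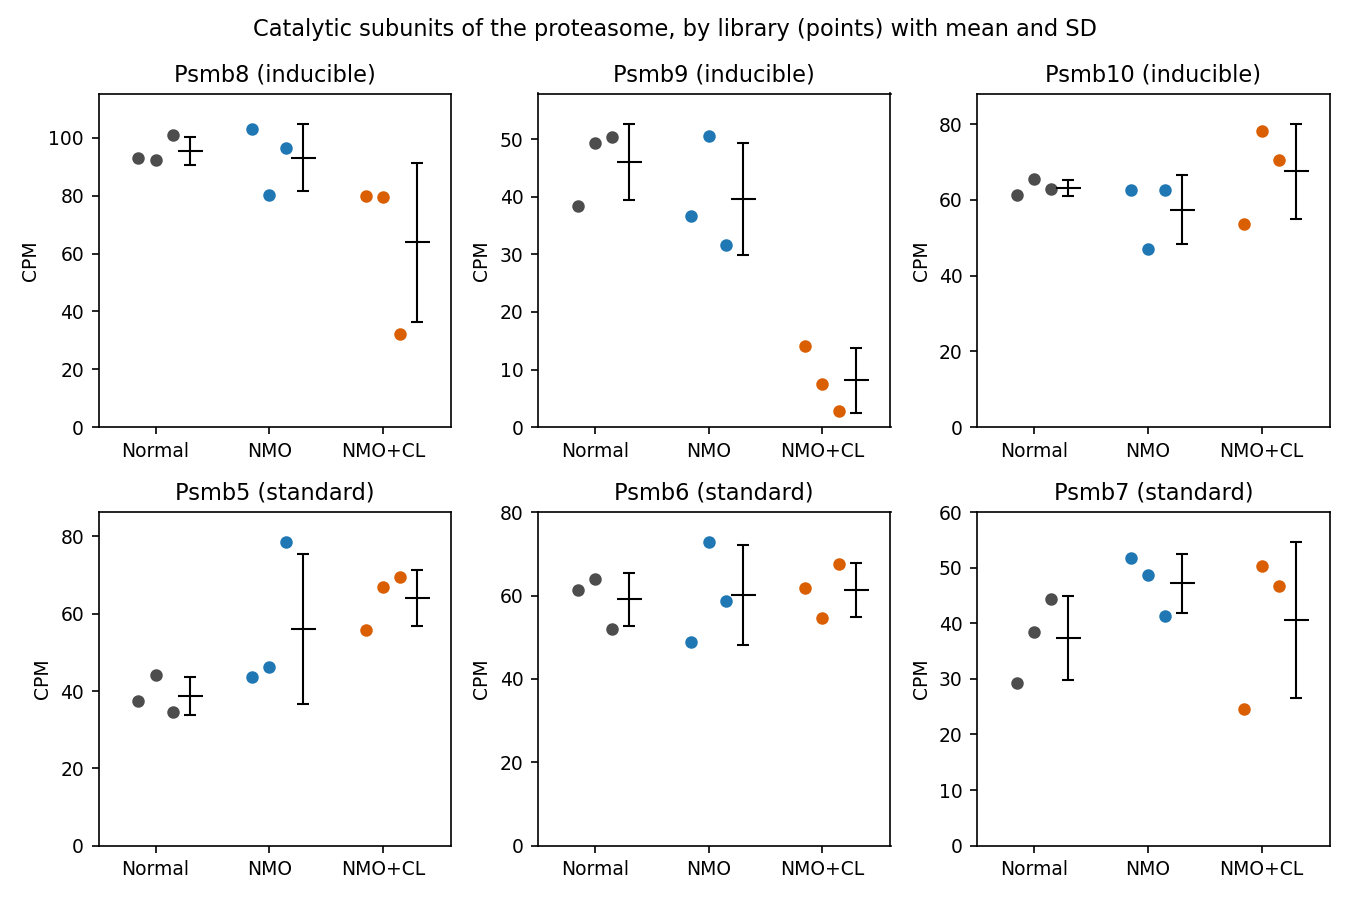
CPM (y axis) of the 3 inducible (top) and 3 standard (bottom) catalytic subunits in each library (points) of the Normal, NMO and NMO+CL groups, with mean and SD (bars). The Psmb9 points of NMO+CL lie at 2.88 to 14 CPM, below all others, while those of Psmb6 overlap between all groups.

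Of the neighbours of Psmb9 and Psmb8, Tap2 fell as well and Tap1 did not. Tap2 had 63.6, 64.7 and 58.9 CPM in Normal, 66.4, 85.1 and 15.4 in NMO, and 15, 8.75 and 16.3 in NMO+CL. NMO replicate 3 was thus at the level of the NMO+CL libraries, whereas its Psmb9 value, the lowest of its group, was well above theirs. Against Normal, Tap2 fell by 2.22 on the log2 scale (SE 0.454, adjusted p = 0.00436, lower in 3 of 3 libraries, called in 17 of 17 alternatives). Against NMO it fell by 2.06 (SE 0.452, adjusted p = 0.0259), a call that held in 8 of 17 alternatives and was lost, among others, without NMO replicate 2 (-1.61, adjusted p = 0.0997). Without NMO replicate 3 the difference was -2.49 (adjusted p = 0.000842). Tap1, which shares its promoter window with Psmb9, had 42.5, 31.3 and 41.9 CPM in Normal, 34.3, 45.1 and 38.3 in NMO, and 33.1, 31.3 and 56.1 in NMO+CL. Its log2 fold change was 0.03 ± 0.30 against NMO and 0.06 ± 0.30 against Normal, with a sign that changed between alternatives.

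**Figure D3:**
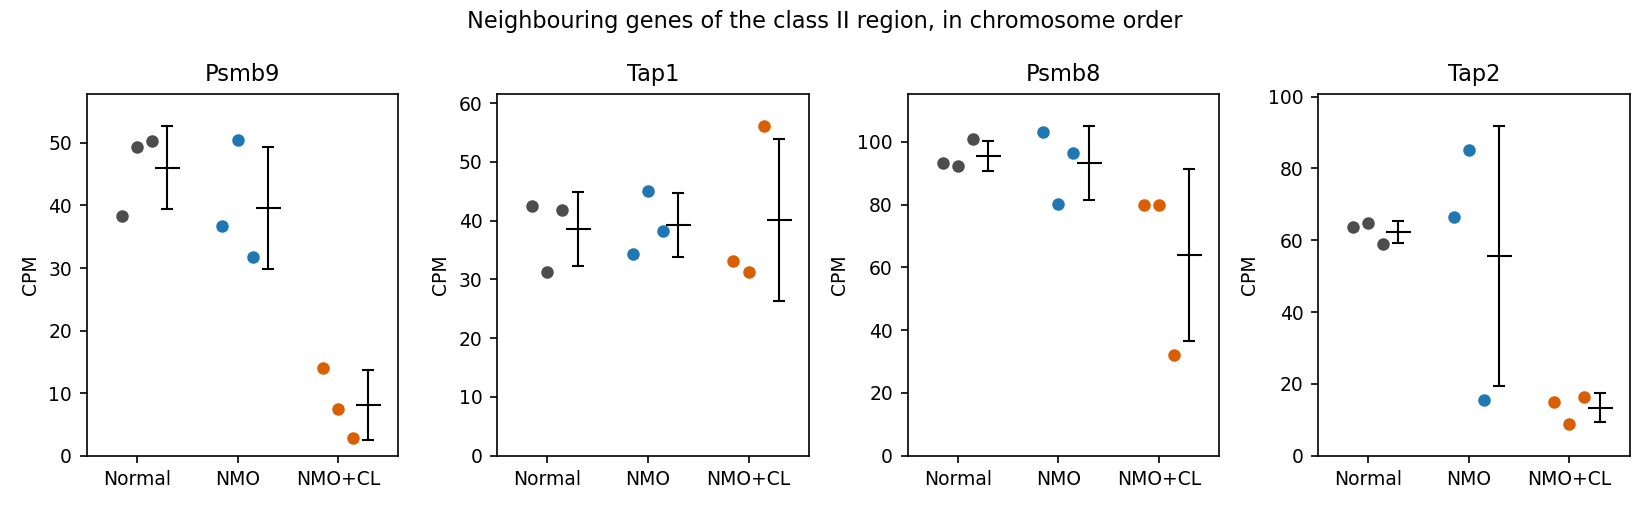
CPM (y axis) of Psmb9, Tap1, Psmb8 and Tap2, in their order along chromosome 17, in each library (points) with mean and SD (bars) per group. Psmb9 and Tap2 are low in all 3 NMO+CL libraries, Tap2 also in a single NMO library at 15.4 CPM, and Tap1 overlaps between the groups.

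Among 13 genes of interferon regulation and class I peptide loading, all tested, 0 were called in NMO against Normal, 1 was lower in NMO+CL against NMO (Tap2), and 1 was higher and 1 lower in NMO+CL against Normal (Calr and Tap2). Calr, a chaperone of the loading complex, had 1160, 1229 and 963 CPM in Normal and 1396, 1781 and 1702 in NMO+CL, a rise of 0.54 ± 0.16 (adjusted p = 0.0424) that was called in 9 of 17 alternatives. Irf1, an interferon-regulated factor that drives the inducible subunits, was not called in any contrast. It ranged from 84.2 to 122 CPM over the 9 libraries, with a log2 fold change in NMO+CL against Normal of -0.14 ± 0.20. Nlrc5, the class I transactivator, was at 0.438 to 8.68 CPM, too low for a comparison.

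Markers of microglia were also lower in NMO+CL. Of 10 microglia markers, 4 fell in NMO+CL against NMO and 7 against Normal, and P2ry12, which was itself used for the sort, fell by 2.22 and 2.79 on the log2 scale. In NMO against Normal, where Psmb9 was not called, 9 of the 10 lay below 0 (median -0.39) and 1 fell, Siglech (-0.88, adjusted p = 0.0287). Of 8 neutrophil markers, 7 were in the files and none was at 0 in all libraries. They summed to 40 to 528 CPM in Normal, 101 to 377 in NMO and 261 to 1289 in NMO+CL, and none was called. Without NMO+CL replicate 1, which had the highest neutrophil sum, the Psmb9 difference was -2.94 against NMO (adjusted p = 0.00233) and -3.15 against Normal (0.000322). Without NMO+CL replicate 3, which had the lowest Psmb9 count, it was -1.88 (0.019) and -2.09 (0.00231). Of 8 monocyte markers, 1 was called (Fn1, higher in NMO+CL against Normal). Together the 8 summed to 25.3 to 57.1, 41.1 to 79 and 40.2 to 101 CPM in the groups in the same order. They did not move as one. In NMO+CL against Normal 5 lay above 0 and 3 below, with Chil3 at 2.22 and Ccr2 at -1.25, neither called. In NMO+CL against NMO 3 lay above 0 and 5 below. The 8 lymphocyte markers in the files, cells that are rich in Psmb9, summed to 2.71 to 7.17 CPM in Normal, 1.12 to 4.28 in NMO and 0.875 to 2.92 in NMO+CL, with Cd3e at 0 in all libraries. The 7 border macrophage markers summed to 160 to 308, 10.8 to 194 and 222 to 412 CPM, and none was called. Most of that sum was Cbr2, with means of 199.7, 105 and 276 CPM, lowest in NMO. Mrc1 (15.7, 11.2 and 14.3 CPM), Lyve1 (8.03, 2.81 and 6.14) and Pf4 (4.84, 0.88 and 2.36) were also lowest in NMO. F13a1 had means of 1.27, 3.95 and 7.11 CPM, and Cd163 and Ms4a7 had means of at most 1.04. The 8 astrocyte and oligodendrocyte markers summed to 177 to 212, 98 to 134 and 78.5 to 127 CPM. Of these 1 was called (Slc1a3, lower in NMO+CL against Normal, -0.88, adjusted p = 0.027). Most of that sum was Slc1a3, with means of 175.6, 107.5 and 95.5 CPM. Only 4 of the 8 were tested, of which 3 lay below 0 in both contrasts with Normal. Aqp4 lay above 0 in both (0.74 in NMO and 0.59 in NMO+CL, not called). The 4 endothelial markers summed to 56 to 77.5, 42.3 to 71.1 and 41 to 77.8 CPM, and the 4 neuronal markers to 8.88 to 34.4, 0.599 to 10.6 and 3.36 to 8.17 CPM. The part of these cells in the fall of Psmb9 was not tested, and in bulk libraries fewer cells of a type and less RNA per cell cannot be told apart.

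No gene of the standard beta ring or of the alpha ring, which gates the core, passed the main edgeR test in any contrast. In NMO+CL against Normal, Psma6 was called in 3 of 17 alternatives, the DESeq2 Wald test among them. Psmb4 was called there in 1 of 17, edgeR with no filter on low counts (adjusted p = 0.0287). The 7 standard beta genes summed to 334, 399 and 335 CPM in Normal, 409, 552 and 510 in NMO and 405, 519 and 512 in NMO+CL, and all 7 had a log2 fold change above 0 in both contrasts with Normal, with medians of 0.50 and 0.47. Psmb4, a structural beta subunit, had 42.6, 84.3 and 79.6 CPM in Normal, 98.3, 104 and 163 in NMO, and 100.2, 98.7 and 148 in NMO+CL. Both injected groups lay wholly above Normal, with differences of 0.82 ± 0.28 (adjusted p = 0.29; 0.54 without NMO replicate 3, 0.613) and 0.75 ± 0.28 (0.114). The 8 alpha genes summed to 506, 552 and 551 CPM in Normal, 638, 636 and 870 in NMO, and 708, 694 and 599 in NMO+CL. Of these, 8 of 8 had a log2 fold change above 0 in NMO against Normal (median 0.34) and 7 of 8 in NMO+CL against Normal (median 0.31), where Psma1 was at -0.31 ± 0.24 and Psma3 at 0.02 ± 0.28. Psma2 had 103, 138 and 142 CPM in Normal, 171, 169 and 279 in NMO, and 180, 158 and 142 in NMO+CL, and its difference of 0.69 ± 0.23 in NMO against Normal had the lowest adjusted p of any proteasome gene in that contrast (0.26), but was 0.40 without NMO replicate 3 (0.623). Psma6 was 0.75 ± 0.24 higher in NMO+CL against Normal (adjusted p = 0.0635). Psma4 was 0.53 ± 0.24 higher there (0.2), and 0.32 without Normal replicate 1 (0.554). Psma8, the alpha subunit of male germ cells, had 0 to 26 counts in a library.

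The ATPases of the cap, the ring that unfolds the substrate, lay highest in NMO+CL. They summed to 428, 474 and 405 CPM in Normal, 462, 498 and 497 in NMO, and 546, 587 and 576 in NMO+CL, so that NMO+CL lay above both other groups and NMO overlapped with Normal. None of the 6 passed the main edgeR test in any contrast. Psmc4 was called in NMO+CL against Normal in 1 of 17 alternatives, edgeR with no filter on low counts (adjusted p = 0.0466). In NMO+CL against Normal all 6 were above 0, with a median of 0.70, and Psmc4 was 0.90 ± 0.34 (adjusted p = 0.111), Psmc1 0.74 ± 0.27 (0.103), Psmc6 0.72 ± 0.28 (0.121) and Psmc5 0.67 ± 0.29 (0.173). Psmc4 also had the largest positive difference of the members in NMO+CL against NMO, at 0.62 ± 0.33 (adjusted p = 0.473), with overlap between the libraries, and it was 0.95 without NMO replicate 2 (0.282) and 0.41 when NMO+CL replicate 2 was left out (0.771). The other ATPases were near 0 in NMO+CL against Normal, with Psmc2 at 0.06 ± 0.20 and Psmc3 at 0.13 ± 0.21, and the 3′ end of Psmc3 overlaps Slc39a13 on the opposite strand.

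**Figure D4:**
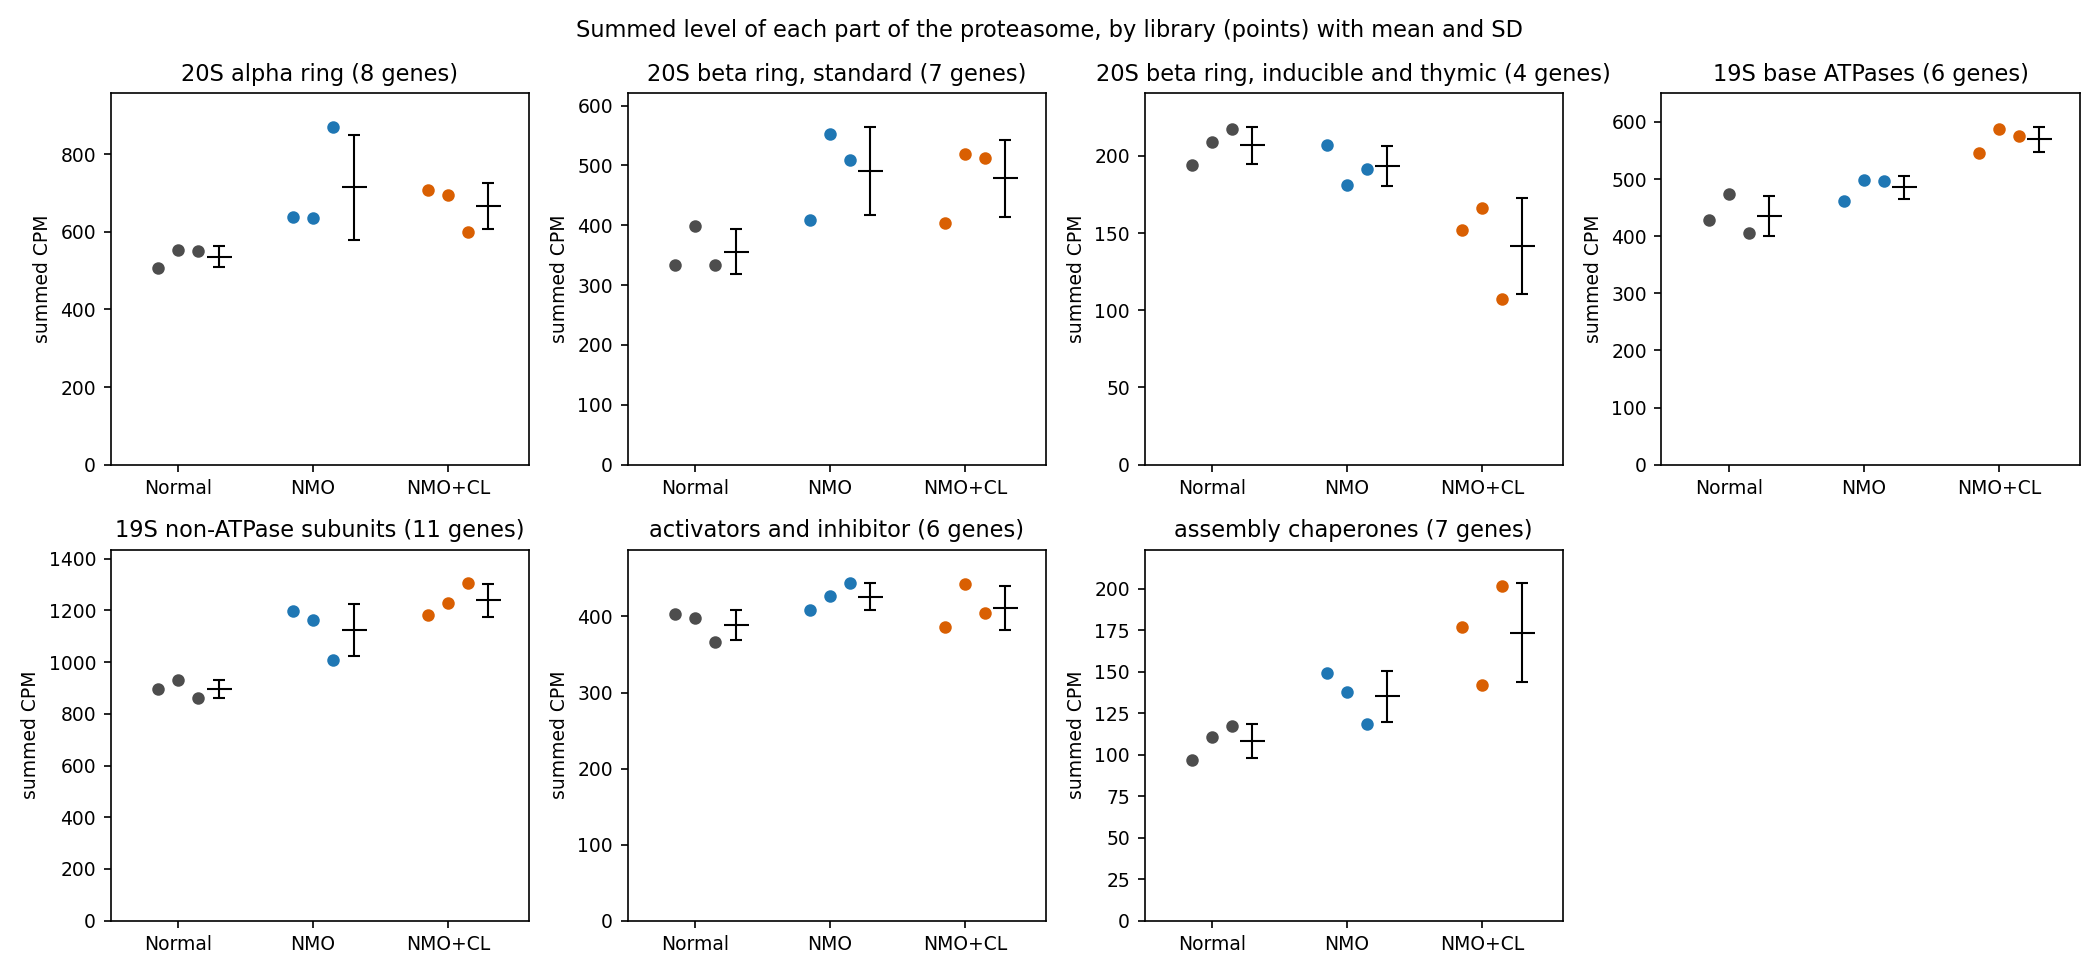
Summed CPM (y axis) of the genes of each role in each library (points), with mean and SD (bars), for Normal, NMO and NMO+CL. The 3 inducible beta genes and the thymic Psmb11, summed, are lowest in NMO+CL at 107 to 167 CPM, whereas the base ATPases are highest there at 546 to 587 CPM.

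Among the 11 other cap subunits, Psmd1 and Psmd7 rose in NMO+CL against Normal. Psmd1 (chromosome 1, 86064387 to 86139151, plus strand) is the large scaffold of the base. It had 134, 105 and 117 CPM in Normal, 175, 146 and 132 in NMO, and 191, 199 and 185 in NMO+CL. All NMO+CL libraries were above all others, and the log2 fold change against Normal was 0.69 ± 0.19 (1.61-fold, adjusted p = 0.0314), beside 0.34 ± 0.19 against NMO (0.5). Reads at its 3′ end also match Gm21972, an overlapping transcript that was not counted apart. Psmd7 (chromosome 8, 107580381 to 107588464, minus strand), the partner of the deubiquitinase in the lid, had 96.1, 109 and 91 CPM in Normal, 172, 139 and 110.5 in NMO, and 150.1, 165 and 179 in NMO+CL. Both injected groups lay above Normal, with 0.51 ± 0.21 in NMO (adjusted p = 0.433, and 0.32 without NMO replicate 1, 0.722) and 0.74 ± 0.21 in NMO+CL (1.67-fold, 0.0316).

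The deubiquitinase itself, Psmd14, had group means of 49.7 ± 7.33, 69.3 ± 20.7 and 51.5 ± 22.3 CPM (SD, n = 3) in Normal, NMO and NMO+CL, with overlap in every contrast. Of the ubiquitin-binding subunits, Psmd4 had means of 133 ± 30.2, 144 ± 41.6 and 165 ± 50.5 CPM. Psmd2, which binds ubiquitin-like carriers, had 93 ± 19, 124 ± 6.75 and 143 ± 18.9 CPM, and both injected groups lay above Normal. Neither difference passed the main edgeR test (0.42 ± 0.21 in NMO, adjusted p = 0.576, and 0.62 ± 0.21 in NMO+CL, 0.0769). That in NMO+CL was called in 1 of 17 alternatives, the DESeq2 Wald test (adjusted p = 0.0345). Psmd6 was 0.75 ± 0.27 in NMO (adjusted p = 0.33) and 0.73 ± 0.27 in NMO+CL (0.108), both against Normal. Psmd3 was 0.65 ± 0.30 in NMO+CL against Normal (0.218). Over the 11 genes the median log2 fold change was 0.39 in NMO and 0.61 in NMO+CL against Normal, with 11 and 10 of 11 above 0.

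Of the activators and the inhibitor, Psme3 rose and the interferon-inducible pair did not. Psme3 (chromosome 11, 101316213 to 101323537, plus strand) encodes PA28 gamma, a nuclear activator that opens the core without ATP or ubiquitin. It had 100, 107 and 128 counts in Normal, 284, 406 and 104 in NMO, and 242, 362 and 244 in NMO+CL. These were 15.9, 16.1 and 21.5 CPM, then 35.7, 48.6 and 16.7, then 35.3, 58.7 and 39.1. NMO+CL lay wholly above Normal, and the NMO libraries fell on both sides, replicate 3 at the Normal level. The rise in NMO+CL against Normal was 1.31 ± 0.38 (2.48-fold, adjusted p = 0.0369), and the difference in NMO was 0.92 ± 0.38 (0.441), or 0.55 without NMO replicate 2 (0.752). The promoter of Psme3, chr11:101315963-101316262 (plus strand, RefSeq GRCm38.p6), is shown as that of the gene in this class that moved, with its CCAAT box in capitals, here on the other strand as ATTGG.
Psme3: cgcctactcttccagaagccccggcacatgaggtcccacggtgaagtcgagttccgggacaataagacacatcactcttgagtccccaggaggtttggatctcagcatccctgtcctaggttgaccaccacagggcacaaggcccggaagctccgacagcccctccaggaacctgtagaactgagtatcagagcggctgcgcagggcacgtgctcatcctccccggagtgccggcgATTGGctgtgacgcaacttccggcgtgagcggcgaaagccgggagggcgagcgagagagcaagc

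Psme1 and Psme2 encode PA28 alpha and beta, the ring that joins the immunoproteasome. Psme1 had means of 93.7 ± 13.4, 102 ± 8.1 and 131 ± 12.6 CPM (SD, n = 3) in Normal, NMO and NMO+CL. Its NMO+CL libraries were above all others, at 0.48 ± 0.20 against Normal (adjusted p = 0.158) and 0.35 ± 0.20 against NMO (0.506), and its 3′ end overlaps Emc9 on the opposite strand. Psme2 and Psme2b are 99% identical over the last 300 bases, and multiply aligned reads were counted, so they are best read together. Their summed level was 188, 217 and 194 CPM in Normal, 189, 191 and 234 in NMO, and 135, 193 and 146 in NMO+CL, with overlap between the groups. Psme2b alone was -0.43 ± 0.22 in NMO+CL against Normal (0.268; -0.64 without NMO+CL replicate 2, 0.144), and Psme2 -0.06 ± 0.28. Psme4, the activator PA200, had 57 ± 9.34, 64.9 ± 7.54 and 61.1 ± 16.5 CPM, and Psmf1, the inhibitor PI31, 20.9 ± 7.59, 20.7 ± 7.22 and 16.7 ± 6.04 CPM, neither of which passed the test. Near-identical copies that the files did not count apart were also found at the 3′ ends of Psma5, Psmb3, Psmb5, Psmc1, Psmd2 and Psme1, and none was found for Psmb8, Psmb9 or Psmb10.

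Of the 7 assembly chaperones, Psmg2 rose. Psmg2 pairs with Psmg1 to build the alpha ring. It had 44, 89 and 132 counts in Normal, 304, 142 and 161 in NMO, and 320, 208 and 252 in NMO+CL, which were 7.01, 13.4 and 22.2 CPM, then 38.2, 17 and 25.8, then 46.7, 33.7 and 40.4. NMO+CL lay wholly above Normal and NMO overlapped with both. The log2 fold change was 1.5 ± 0.42 in NMO+CL against Normal (2.83-fold, adjusted p = 0.0301), 0.93 ± 0.41 in NMO against Normal (0.487) and 0.58 ± 0.41 in NMO+CL against NMO (0.623). The last ran from 0.33 without NMO replicate 2 (0.844) to 0.93 without NMO replicate 1 (0.495), and that in NMO against Normal was 0.60 without Normal replicate 1 (0.811) and 0.57 without NMO replicate 1 (0.767). Psmg1 did not share this course, with means of 11.9 ± 7, 10.3 ± 2.75 and 12.1 ± 4.42 CPM (SD, n = 3) and a log2 fold change of -0.21 ± 0.54 in NMO against Normal (adjusted p = 0.975), which was 0.38 without Normal replicate 2 (0.993). The second pair, Psmg3 and Psmg4, was 0.85 ± 0.33 (adjusted p = 0.124) and 0.93 ± 0.46 (0.25) in NMO+CL against Normal, and 0.49 without NMO+CL replicate 3 (0.456) and 0.50 without NMO+CL replicate 1 (0.667), respectively. Psmg3 was 0.57 ± 0.33 in NMO+CL against NMO (0.507, and 0.21 without NMO+CL replicate 3) and Psmg4 0.93 ± 0.46 in NMO against Normal (0.564). The base chaperone Psmd10 was at -0.36 ± 0.38 in NMO against Normal (0.891), and ran from -0.62 without NMO replicate 2 (0.74) to -0.19 without Normal replicate 3 (0.985). Psmc3ip ran from 5.16 to 24.4 CPM in NMO, with 0.97 ± 0.83 in NMO against Normal (0.833) and -0.85 ± 0.83 in NMO+CL against NMO (0.771), and the sign of both changed without NMO replicate 2. Its last 300 bases lie within Mlx on the opposite strand, so reads of these genes may be mixed.

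**Figure D5:**
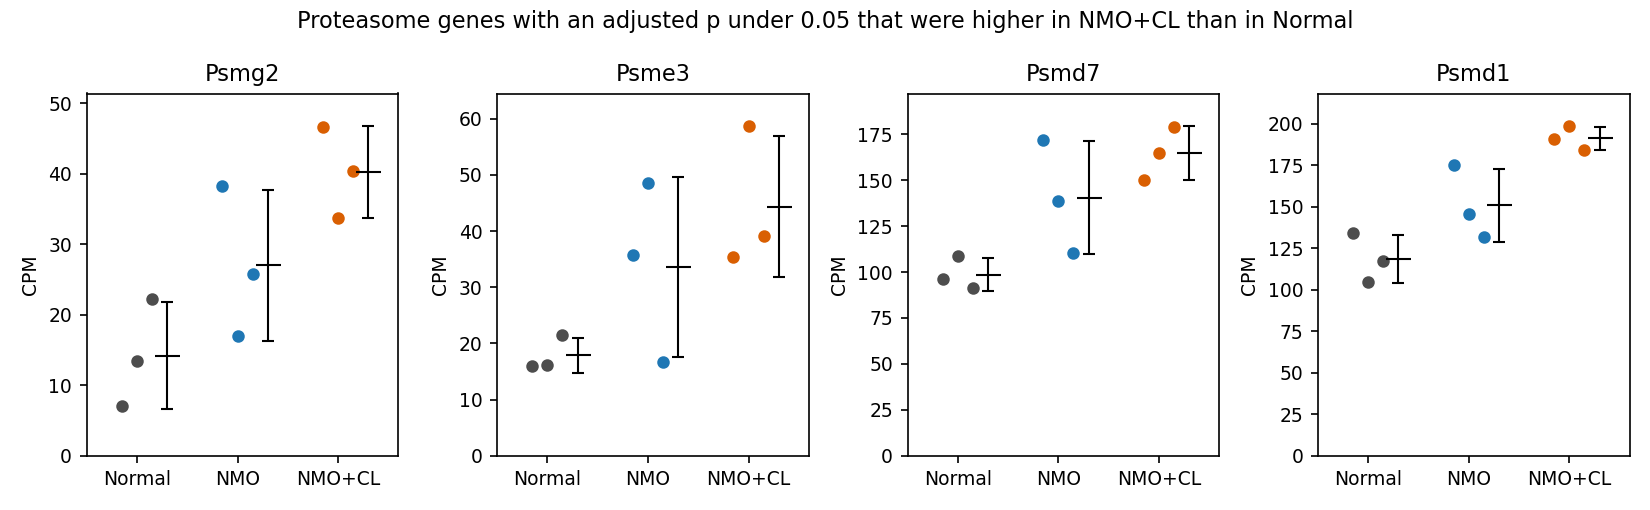
CPM (y axis) of Psmg2, Psme3, Psmd7 and Psmd1 in each library (points) with mean and SD (bars) for Normal, NMO and NMO+CL. In each panel the 3 NMO+CL points lie above the 3 Normal points, and the NMO points reach into the range of at least 1 other group.

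These 4 rises depended on single libraries, as did the fall of Psmb9 against NMO, which was lost without NMO+CL replicate 2 (adjusted p = 0.0764). The fall of Psmb9 against Normal stayed called with each library left out in turn. With all libraries 4 were called, without Normal replicate 2 or without NMO+CL replicate 2 the count was 0, without Normal replicate 1 or 3 it was 1, and without NMO+CL replicate 1 it was 2. Over all genes, the higher calls went from 589 to 384, 388 and 346 without Normal replicates 1, 2 and 3, to 494 without NMO+CL replicate 1 and to 335 without NMO+CL replicate 2. Other alternatives raised the count of members, to 5 with library totals alone, 6 with the DESeq2 Wald test and 6 with no filter on low counts. Over all genes the higher calls were then 651, 795 and 737. Psme3 was also lost without NMO replicate 1 (adjusted p = 0.0505) and with limma-voom (0.0566). Without NMO+CL replicate 3 the count was again 4, but Psmd7 (0.0786) and Psmg2 (0.0523) were lost while Psma6 and Psmd6 were called. Psmd1 was called in 13 of 17 alternatives (adjusted p up to 0.147), Psmd7 in 12 (up to 0.131), Psmg2 in 12 (up to 0.133) and Psme3 in 11 (up to 0.182). The direction of all 4 was kept in all 17.

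Genes that regulate or attend the proteasome were read from lists beside the members. Of 12 tested regulators, assembly factors and bound proteins, 0 were called in NMO against Normal or in NMO+CL against NMO, and 1 was lower in NMO+CL against Normal. This was Akirin2, an adaptor that carries proteasomes into the nucleus, which had 159, 137 and 209 CPM in Normal, 162, 106 and 115 in NMO, and 74.4, 51.5 and 78.5 in NMO+CL. It fell by 1.30 on the log2 scale against Normal (SE 0.244, adjusted p = 0.00228, called in 17 of 17 alternatives), and the difference against NMO, -0.91 ± 0.24, did not pass (0.0775). Nfe2l1, the factor that raises proteasome genes when the proteasome is short, had 64.1, 59.6 and 53.8 CPM in Normal, 89.9, 73.3 and 75.1 in NMO, and 83.8, 92 and 100.7 in NMO+CL. Both injected groups were above Normal, without a call (0.42 ± 0.21, adjusted p = 0.576, and 0.64 ± 0.21, 0.0735). Nfe2l2, the factor of the oxidative stress response, was at 0.04 ± 0.24 in NMO+CL against Normal. Adrm1, a ubiquitin receptor, was at 0.69 ± 0.30 (0.176), and Pomp, the maturation factor of the core, at -0.23 ± 0.32 (0.769). Of 14 tested genes of ubiquitin and substrate delivery, 0 were called in any of the 3 contrasts.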

How the data were processed

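RNA from sorted microglia was made into QuantSeq 3′ libraries and sequenced by the authors as single reads, aligned with Bowtie2 and counted with Bedtools. Reads with several alignments were included. The deposited values are raw counts per gene, before normalization, on mm10 per the labels. The gene annotation and whether strand was used are not given in the sources used here. Counts on 79 entries of 35 repeated symbols were summed. Genes were kept by filterByExpr (minimum count 10, minimum total 15), which left 12292, and tested with edgeR 4.0.16 in R 4.3.3. A quasi-likelihood model with TMM-scaled library sizes and 1 coefficient per group was fitted to all 9 libraries. Tests were two-sided. The Benjamini-Hochberg adjustment ran over all 12292 genes of a contrast, and calls were made at 0.05. The script was tested on simulated data. The common biological coefficient of variation was 0.519, and chi-square per degree of freedom between replicates was 22.8 to 54.8, so counts varied by more than counting error. Errors are SE for fold changes and SD (n = 3) for levels.

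Members, lists and naming rule were chosen with earlier results of these data known. Named were called members, catalytic subunits, activators, Psmd2, Psmd4 and Psmd14, the 3 largest rises and falls per contrast among members with a mean count of at least 50, called partner genes and 8 fixed partners, of which 1 is not reported here. Psma1 to Psma4, Psma6, Psmb4, Psmb11, Psma8, the cap genes Psmc1, Psmc2, Psmc3, Psmc5, Psmc6, Psmd3 and Psmd6, and the members without overlap were named after their values were seen. Alternatives were DESeq2 1.42.0, limma-voom (limma 3.58.1), RLE scaling, library totals, no filter, the replicate block, the groups compared alone, no Rn45s, each library left out, and a 1.5-fold change with unadjusted p. The placement of libraries without NMO replicate 2 was added after seeing the data. Replicate numbers did not pair the samples. Gene coordinates are from GENCODE M21 (GRCm38), which matched all 50 members. Copies were sought among the last 300 transcript bases (95% identity over 70 bases).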

Additional observations from a re-analysis of the deposited data

How the results depend on the processing

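By the 1.5-fold change and unadjusted p, 5 members were higher in NMO against Normal and 15 in NMO+CL against Normal. With library totals alone the median log2 fold change of the members was 0.433, -0.038 and 0.38 in NMO against Normal, NMO+CL against NMO and NMO+CL against Normal, and that of all genes 0.10, -0.05 and 0.05. In the fit of the 2 groups alone, 0 members were lower in NMO+CL against NMO. With 1 library left out, the median ran from 0.211 to 0.367 in NMO against Normal, 0.013 to 0.075 in NMO+CL against NMO and 0.319 to 0.409 in NMO+CL against Normal, the lower count in NMO+CL against NMO from 0 to 1 (0 without NMO+CL replicate 2), and the higher count in NMO+CL against Normal from 0 to 4. Over these, Tap1 ran from -0.286 to 0.182 in NMO+CL against NMO and from -0.259 to 0.208 against Normal, Psmg1 from -0.511 to 0.38 in NMO against Normal, and Psmc3ip from -0.185 to 1.567 there and from -1.176 to 0.308 in NMO+CL against NMO. The sign of Tap1 in NMO+CL against NMO turned with library totals alone (-0.019), limma-voom (-0.018), the replicate block (-0.012), and without NMO replicate 1 (-0.034) or NMO+CL replicate 3 (-0.286), and against Normal without Normal replicate 2 (-0.073) or NMO+CL replicate 3 (-0.259). Psmg1 turned in NMO against Normal without Normal replicate 2 (0.38), and Psmc3ip without NMO replicate 2, to -0.185 against Normal and to 0.308 for NMO+CL against NMO. The causes were not tested. Replicate numbers gave correlations of -0.019 to 0.038 between libraries of the same number, and the fit with a replicate block called 0, 1 and 5 members in the 3 contrasts and lost no member call. Counts of 7 to 35 for Psmb11 and 0 to 26 for Psma8 limit what can be seen in those genes.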
